A study of Homo sapiens with 10 samples.

Results

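Transcripts of 39 interferon-stimulated and DNA-sensing genes were followed in HAP1 clones that lack MUTYH, OGG1 or both DNA glycosylases, and in wild type clones after hydrogen peroxide. The genes were taken by symbol from a list that sets no threshold on measured values, and all 39 were among the 59453 genes of the count tables. The list was chosen with earlier results of these data known, so shares of its members are a description. HAP1 is a human cell line that is nearly haploid and descends from a chronic myeloid leukaemia line, and its clones were edited with CRISPR-Cas9. The groups were wild type (WT, clones 2 and 11), MUTYH knockout (clones 7 and 8), OGG1 knockout (clones 1 and 22) and double knockout (DKO, clones 4 and 14), all untreated and with 1 library per clone. Where 2 values are given for a group, they follow this order of clones. WT clones 2 and 11 were also sequenced after 24 hours in 100 µM H2O2 (WT+H2O2). Each knockout library is therefore 1 clone, and both DKO clones were made from 1 of the OGG1 knockout clones, by its product number clone 22, so that 3 of the 4 clones without OGG1 share a lineage. The comparisons address whether loss of a glycosylase, or the oxidant, raises innate immune signalling at the transcript level.

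In cells, cGAS (gene CGAS) binds DNA that has reached the cytosol and makes a cyclic dinucleotide that activates STING (STING1). STING recruits the kinase TBK1, which phosphorylates the transcription factor IRF3, and IRF3 then switches on interferon beta and a few interferon-stimulated genes directly. Secreted interferon acts through its receptors and the kinases JAK1 and TYK2 on factors such as STAT2 and IRF9, which act at the interferon-stimulated response element in the promoters of antiviral genes. The RNA sensors RIG-I (listed under its older symbol DDX58), MDA5 (IFIH1) and LGP2 (DHX58) feed into the same kinase. The products of the induced genes block virus entry (IFITM1, IFITM2, IFITM3), bind viral RNA (the IFIT family), activate RNA decay (OAS1, OAS2, OAS3), hold virions at the cell surface (BST2, tetherin) or conjugate and remove the ubiquitin-like protein ISG15 (HERC5, USP18).

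The response element was visible in the promoters of most of these genes, and 5 promoter stretches are shown because their genes differ in level across the clones or serve as reference genes of the pathway. RefSeq promoter windows (GRCh38.p14, 250 bases before to 50 after the start of the gene) were at hand for 28 of the 39 genes. Of these, 20 (71.4%) held the core of the element, spelled GAAA, any 2 bases, GAAA on either strand, against 1255 of all 35116 windows (3.57%). A member with several windows was counted once if any of them held a match, whereas the share of all windows is per window. Matches may overlap each other. With at most 1 mismatch the numbers were 24 of 28 members and 11597 of all windows. The core matches are in capitals below, each stretch is written 5′ to 3′ on the strand of its gene, and on the opposite strand the core reads TTTC, any 2 bases, TTTC.
IFIT1, chr10:89392492-89392544, plus strand, matches starting at -116 and -103 from the start: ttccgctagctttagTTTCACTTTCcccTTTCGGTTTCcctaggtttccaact
ISG15, chr1:1013369-1013414, plus strand, overlapping matches at -113 and -107: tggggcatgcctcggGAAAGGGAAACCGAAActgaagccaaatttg
IFITM1, chr11:313985-314058, plus strand, matches at -40 and -6: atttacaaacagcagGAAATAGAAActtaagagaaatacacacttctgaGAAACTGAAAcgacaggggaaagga
BST2, chr19:17405730-17405775, minus strand, overlapping matches at -130 and -124: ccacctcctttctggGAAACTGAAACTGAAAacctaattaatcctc
HERC5, chr4:88456979-88457069, plus strand, matches at -125, -119 and -74: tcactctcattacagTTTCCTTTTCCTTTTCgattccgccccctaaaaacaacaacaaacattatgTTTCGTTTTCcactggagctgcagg
The windows of TBK1, IRF1, IRF9, STAT2, OAS1, DDX58, IFI35 and TRIM25 held no exact match. CGAS, STING1, IRF3, IRF7, IFIT2, MX2, OAS2, OASL, DHX58, IFITM2 and USP18 had no entry.

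The libraries were of nearly equal depth, from 22225091 to 22674964 counts, so that 1 count was worth between 0.0440 and 0.0462 CPM (the count scaled to the size of its library after TMM normalization) and the 3 counts taken as the floor came to 0.132 to 0.1385 CPM. OGG1 had 27 counts in OGG1 knockout clone 1 but 254, 215 and 223 in OGG1 knockout clone 22 and DKO clones 4 and 14, against 275 to 331 in the other clones. MUTYH counts were 50 to 106 in the 4 clones lacking MUTYH and 80 to 119 elsewhere, so transcript levels did not check those labels. The study reported loss of the targeted proteins in all of its knockout clones, measured by targeted mass spectrometry. The untreated libraries fell into 2 sets that cross the genotypes, separated by the sign of the first principal component of log2 CPM centred within genotype (49.9% of that variance). Set A held DKO clone 14, OGG1 knockout clone 22, MUTYH knockout clone 8 and WT clone 2, and set B their sister clones 4, 1, 7 and 11. No label names these sets, and members that move with them are named as such. Of 10 blood and immune markers, CD3E and MS4A1 had no count in any library and none was above 1 CPM in WT. The 10 markers summed to 0.443 to 2.06 CPM per library, while the sum of 5 fibroblast markers was 20.9 to 54.9 CPM. COL1A1 made most of the fibroblast sum, with 15.5 to 47.6 CPM per library. COL1A2 and PDGFRB reached at most 1.02 and 1.401 CPM, and COL3A1 and THY1 stayed below COL1A1 in every library.

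Kinase and transcription factor transcripts were readily measured in HAP1, while several of the strongest interferon-induced genes were at or near 0. The 39 genes together took 506 to 601 CPM per library, and BST2 alone made 15.2% to 31.6% of this. In every library 25 of the genes had at least 10 counts and 20 had at least 1 CPM. IFI44L had 0 counts in all 10 libraries, and MX2, OASL, CXCL10 and IFI44 reached at most 3 counts in any of them, the floor of detection. These genes encode products that interferon induces strongly in many cell types, among them the chemokine CXCL10 and the antiviral GTPase MX2. Of 7 interferon genes looked up (IFNB1, IFNA1, IFNL1, IFNL2, IFNL3, IFNK and IFNE), 6 had no count in any library, and the seventh, IFNB1, had 1 count in H2O2-treated WT clone 11. A count of 0 allows up to the 3-count floor and covers counting error only.

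Scaled by the length of its annotated exons (GENCODE v44, a later release than the annotation used for counting), BST2 stood first in WT with 102.5 CPM per kb. IRF3 followed with 12.2, TRIM25 with 8.98, USP18 with 6.44, IFIT5 with 5.76, ISG15 with 5.55, IFI6 with 5.21 and STAT2 with 5.05 CPM per kb. CGAS stood at 2.71 and TBK1 at 2.496 CPM per kb, from WT means of 11.3 and 36.7 CPM and exon lengths of 4174 and 14716 bases. These lengths join the exons of all annotated transcripts of a gene and can exceed the length of any 1 of them. The order of the members on this scale therefore depends on the annotation. STING1 stood at 0.702 CPM per kb and the RNA sensors DDX58, IFIH1 and DHX58 lower still, at 0.0493, 0.216 and 0.168 CPM per kb. Of the DDX58 exon bases, 43.2% are shared with another annotated gene on the same strand. How reads over shared bases were counted is not given in the sources used here. Over the 10 libraries the members not followed singly below kept to narrow ranges or low levels: STAT2 33.0 to 56.9 CPM, IRF9 2.455 to 6.81 CPM, IFIT5 21.45 to 30.45 CPM, USP18, which removes ISG15 from proteins, 19.4 to 31.8 CPM, PARP9 5.55 to 12.8 CPM and PARP14 27.1 to 43.97 CPM. ISG20, an RNA exonuclease, lay between 1.60 and 4.16 CPM, IFI27 between 1.82 and 4.66 CPM, IFI35 between 0.723 and 1.95 CPM, and the GTPase MX1 and OAS1 between 0 and 17 and 0 and 15 counts. The filter on low counts passed 33 of the 39 members in both fits, and MX2, OAS1, OASL, IFI44, IFI44L and CXCL10 were not tested.

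**Figure D1:**
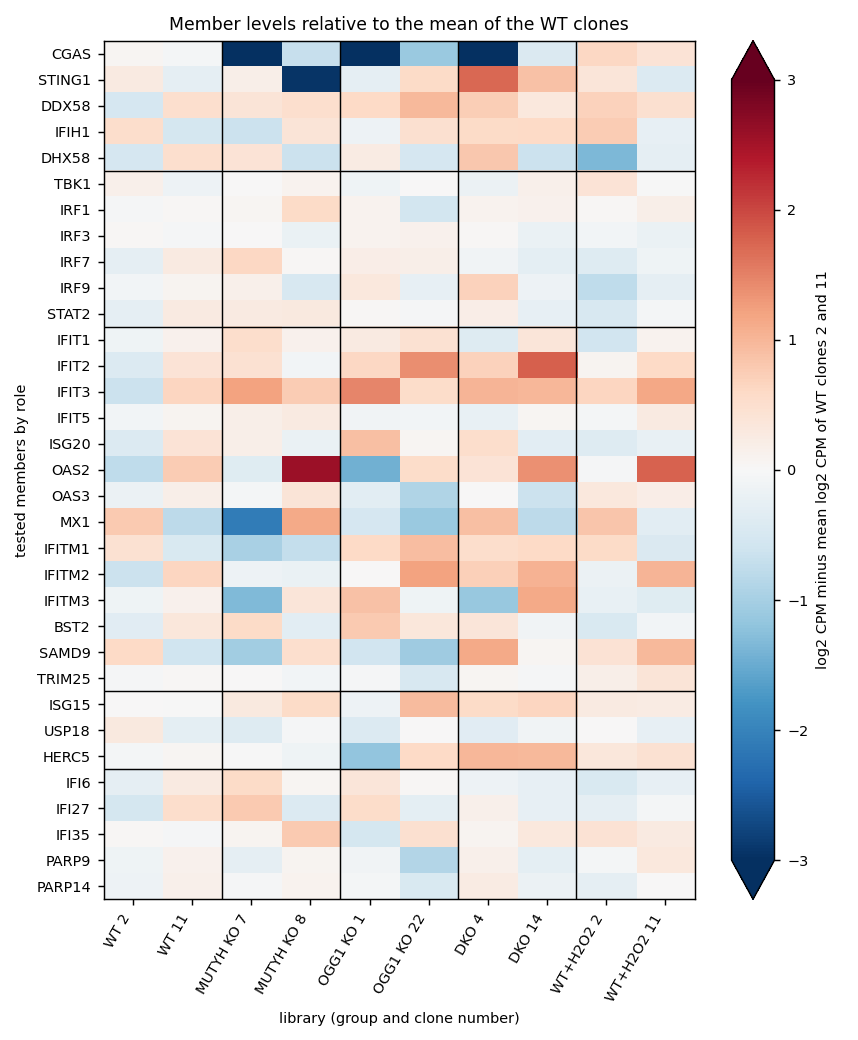
Log2 CPM of the 33 tested members (rows, by role from sensors at the top to other induced genes at the bottom) in the 10 libraries (columns), minus the mean of WT clones 2 and 11. The colour scale ends at 3 in either direction. The darkest blue cells include CGAS in DKO clone 4, OGG1 knockout clone 1 and MUTYH knockout clone 7, and STING1 in MUTYH knockout clone 8, and no column is red throughout.

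The DNA sensor CGAS varied more by clone than by genotype. It lies on chromosome 6 at 73413515 to 73452297 (GRCh38, minus strand), and 4.3% of its exon bases are shared with exons of DDX43 on the other strand. CGAS counts were 267 and 243 for WT, 14 and 158 for MUTYH knockout, 10 and 117 for OGG1 knockout, and 14 and 189 for DKO. All 6 knockout clones lay below both WT clones, and 1 clone of each knockout genotype lay far below its sister. WT stood at 11.8 and 10.8 CPM, against 0.627 CPM in DKO clone 4, 0.452 CPM in OGG1 knockout clone 1 and 0.646 CPM in MUTYH knockout clone 7, which is 0.0555, 0.0400 and 0.0572 of the WT mean. Their sister clones stood at 8.33, 5.19 and 7.004 CPM, and the ratio between sister clones was 10.8 for MUTYH knockout, 11.5 for OGG1 knockout and 13.3 for DKO. The 3 low clones belong to 3 genotypes and to set B, whereas WT clone 11, also of set B, was not low.

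With this spread between sister clones, CGAS did not meet the threshold in any knockout comparison with edgeR. The study called a gene differentially expressed when its log2 fold change was beyond 1 and its P, without adjustment, did not exceed 0.05. The log2 fold change was -1.57 ± 1.40 (SE, edgeR P of 0.298) in MUTYH knockout, -2.004 ± 1.43 (P of 0.201) in OGG1 knockout and -1.34 ± 1.39 (P of 0.366) in DKO, with 95% intervals from -4.85 to 1.71, -5.35 to 1.34 and -4.59 to 1.91. With the library set as a term in the fit, the values were -2.66 (P of 0.0168), -3.09 (P of 0.00928) and -2.49 (P of 0.0221), with Benjamini-Hochberg (BH) adjusted p of 0.997, 0.675 and 0.613 by edgeR over all 17881 genes. That term was read from the same counts, so its P values are no independent test.

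A drop over 10-fold from set A to set B in each of the 3 knockout genotypes was found for 1 of the 17881 tested genes, CGAS. This threshold was set after the CGAS values had been seen, and the count is a description. The genes beside CGAS did not share a drop of this size. Of the genes within 250 kb, 6 had a mean of at least 100 counts (KHDC1, RPL39P3, MTO1, EEF1A1, SLC17A5 and CD109), and in the 3 low clones they stood between 0.721 and 1.43 times their WT mean. MTO1, which encodes a mitochondrial tRNA modifying protein and starts 9281 bases from the CGAS gene, stood at 892 and 725 counts for WT and at 778 (MUTYH knockout clone 7), 632 (OGG1 knockout clone 1) and 819 counts (DKO clone 4) in the low clones. RPL39P3 and EEF1A1 were lower in each low clone than in its sister clone, SLC17A5 and CD109 were higher in each, and KHDC1 and MTO1 differed by genotype. RPL39P3 is a processed pseudogene of a ribosomal protein gene and may share reads with its parent.

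**Figure D2:**
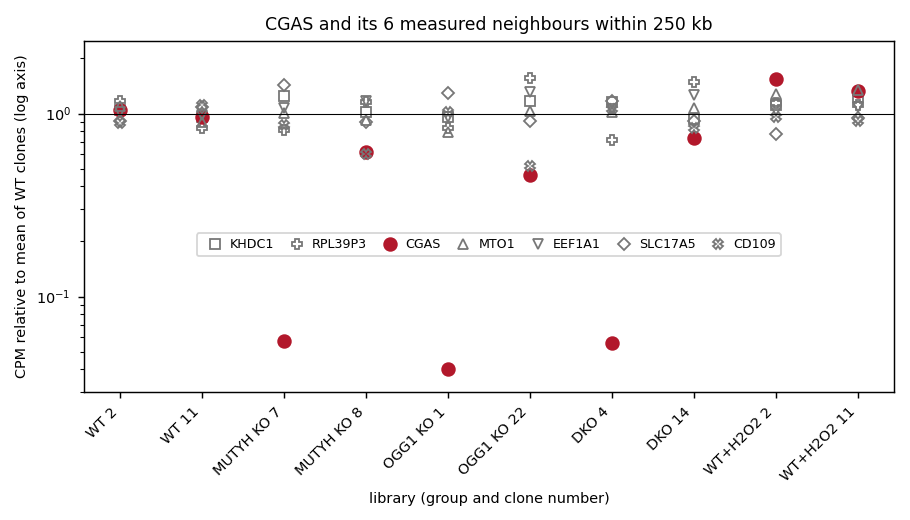
CPM of CGAS (red) and its 6 measured neighbours (grey symbols) in each library, divided by the mean of the WT clones, on a log axis. CGAS lies between 0.0400 and 0.0572 in DKO clone 4, OGG1 knockout clone 1 and MUTYH knockout clone 7, while no neighbour goes below 0.721 there.

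STING1, the adaptor downstream of cGAS, followed another pattern. Its counts were 90 and 62 for WT, 81 and 8 for MUTYH knockout, 60 and 112 for OGG1 knockout, and 247 and 140 for DKO. MUTYH knockout clone 8 was thus low and both DKO clones were above both WT clones. Between DKO and WT the log2 difference was 1.36 ± 0.85 (SE, P of 0.152, 95% interval -0.63 to 3.35), short of the threshold in the fit of all 8 libraries. It met the criterion without MUTYH knockout clone 7, without MUTYH knockout clone 8 and in the fit of the WT and DKO libraries alone. The clones with little CGAS and the clone with little STING1 were different ones: MUTYH knockout clone 8 kept 158 counts of CGAS, and OGG1 knockout clone 1, with 10 counts of CGAS, kept 60 of STING1. The RNA sensors DDX58, IFIH1 and DHX58 had 4 to 41 counts per library, and none met the criterion in any comparison.

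The kinase and the transcription factors were level by comparison. TBK1 ranged from 32.4 CPM in DKO clone 4 to 40.8 CPM in DKO clone 14 among untreated libraries, with 40.8 and 32.7 CPM for WT, 37.0 and 39.1 CPM for MUTYH knockout and 33.3 and 36.9 CPM for OGG1 knockout. IRF3 stood at 47.4 and 45.01 CPM in WT, 46.7 and 40.4 CPM in MUTYH knockout, 49.4 and 50.3 CPM in OGG1 knockout and 47.3 and 40.4 CPM in DKO. For both genes the 95% interval of the log2 fold change against WT stayed within 1 in either direction in all 3 knockouts, so a doubling was outside these intervals. IRF1, a factor that interferon gamma induces, stood at 5.10 and 5.36 CPM in WT, 5.45 and 7.89 CPM in MUTYH knockout, 5.65 and 3.55 CPM in OGG1 knockout and 5.64 and 5.73 CPM in DKO. IRF7, the factor that amplifies interferon alpha, had 6.30 and 9.17 CPM in WT, 11.7 and 7.85 CPM in MUTYH knockout, 8.68 and 8.66 CPM in OGG1 knockout and 7.03 and 6.17 CPM in DKO, with overlap between every knockout and WT.

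In MUTYH knockout 0 of 33 tested members met the criterion by edgeR, and 0 by the Wald test of DESeq2, with 1 at an unadjusted P of at most 0.05, while 1.19% of all 17881 genes did by edgeR. IFITM1 had P of 0.0416 but a log2 fold change of -0.96 ± 0.39 (SE, BH adjusted p = 0.9997 by edgeR, 95% interval -1.87 to -0.05), with 1.06 and 1.29 CPM in MUTYH knockout against 3.02 and 1.55 CPM in WT. Both clones of MUTYH knockout lay above both WT clones for 6 members (18.2% of those tested) and below for IFITM1 and CGAS (6.06%), compared with 11.8% and 9.78% of all genes. The 6 were IFIT3, IFIT5, ISG15, STAT2, IFI35 and IRF1. OAS2, whose product makes the second messenger that activates RNase L, had 9.31 CPM in MUTYH knockout clone 8 and 1.15 CPM in clone 7, so that its log2 fold change of 1.58 ± 1.05 (SE, P of 0.173) rested on 1 clone and was -0.58 without it. The median log2 fold change of the members was 0.05, against 0.01 for all genes, and it ran from -0.03 to 0.33 when single libraries were left out, with 0.33 without WT clone 11.

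In OGG1 knockout 0 of 33 tested members met the criterion by edgeR or by DESeq2, and none had an unadjusted P of at most 0.05, while 1.67% of all genes met it. Both clones lay above both WT clones for 6 members (18.2%, IFITM1, IFIT2, DDX58, BST2, IFIT1 and IRF3) and below for OAS3, CGAS and IFIT5 (9.09%), where 13% and 12.2% of all genes did so. The lowest P belonged to IFITM1, with 3.34 and 4.22 CPM and a log2 fold change of 0.73 ± 0.37 (SE, P of 0.0900). OAS3 stood at 14.1 and 9.37 CPM in OGG1 knockout clones 1 and 22 and at 15.6 and 19.9 CPM in WT. The median log2 fold change of the members was 0.07, against 0.01 for all genes, and it was -0.05 without OGG1 knockout clone 22.

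In DKO 1 of 33 tested members met the criterion, IFIT2, and 1.77% of all genes did. IFIT2, which binds viral RNA, was a low-count gene, with 6 and 12 counts for WT, 12 and 8 for MUTYH knockout, 14 and 26 for OGG1 knockout and 15 and 35 for DKO. DKO exceeded WT by 1.46 ± 0.61 on the log2 scale (SE, P of 0.0470, BH adjusted p = 1 by edgeR), and DKO clone 4 lay only 3 counts above WT clone 11. The call was lost with DESeq2 (P of 0.0802), in a fit of the 4 libraries of WT and DKO (P of 0.0558), with the library set in the fit (P of 0.0526) and without any 1 of WT clone 2, MUTYH knockout clones 7 and 8, OGG1 knockout clones 1 and 22 and DKO clone 14, with log2 fold changes of 0.74 to 1.46. Of the IFIT2 exon bases, 13.6% are shared with other annotated genes, among them LIPA on the opposite strand, and the strand setting of the counting is not given in the sources used here.

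More members lay wholly above WT in DKO than in the single knockouts. Both DKO clones exceeded both WT clones for 10 members (30.3% of those tested), compared with 13.1% of all genes, and lay below them for CGAS (3.03%), compared with 12.6%. These 10 were IFIT2, HERC5, IFIT3, ISG15, STING1, IFITM1, IFITM2, IFIH1, IFI35 and IRF1, and 9 of them did not meet the criterion. HERC5, the ligase that attaches ISG15 to newly made proteins, had 21.4 and 21.1 CPM for DKO, 10.2 and 11.1 CPM for WT, 10.6 and 9.80 CPM for MUTYH knockout and 4.61 and 16.3 CPM for OGG1 knockout. The DKO clones lay close together and above WT by 0.9954 ± 0.49 on the log2 scale (SE, P of 0.0777, BH adjusted p = 1 by edgeR), whereas the OGG1 knockout clones lay on either side of WT. In a fit of WT and DKO libraries alone its P was 0.00315, with a log2 fold change of 0.9965, under the size threshold. The median log2 fold change of the members in DKO was 0.12, against 0.00 for all genes, and it was -0.07 without DKO clone 4.

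ISG15 itself had 4.83 and 4.79 CPM for WT, 5.91 and 7.18 CPM for MUTYH knockout, 4.34 and 9.32 CPM for OGG1 knockout, and 7.21 and 7.54 CPM for DKO. Against WT its log2 fold change was 0.44 ± 0.36, 0.50 ± 0.36 and 0.62 ± 0.36 (SE) in MUTYH knockout, OGG1 knockout and DKO, and in none did it meet the criterion. IFIT3 had 0.665 and 1.77 CPM in WT, 2.63 and 1.91 CPM in MUTYH knockout, 3.21 and 1.64 CPM in OGG1 knockout, and 2.33 and 2.29 CPM in DKO. WT clone 2 was the lowest library: without WT clone 11 its log2 fold change was 1.76, 1.86 and 1.79 in the 3 knockouts and met the criterion in each, and with all libraries it was 0.89 to 0.99 and did not. With the library set in the fit of all 8 libraries it met the criterion in OGG1 knockout (1.02, P of 0.0292) and DKO (1.04, P of 0.0278). These 3 comparisons share their WT libraries, so their values are not independent. IFIT1, the best known gene of its family, had 5.28 and 6.38 CPM in WT, 8.45 and 6.34 CPM in MUTYH knockout, 7.003 and 7.95 CPM in OGG1 knockout and 4.39 and 7.496 CPM in DKO.

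**Figure D3:**
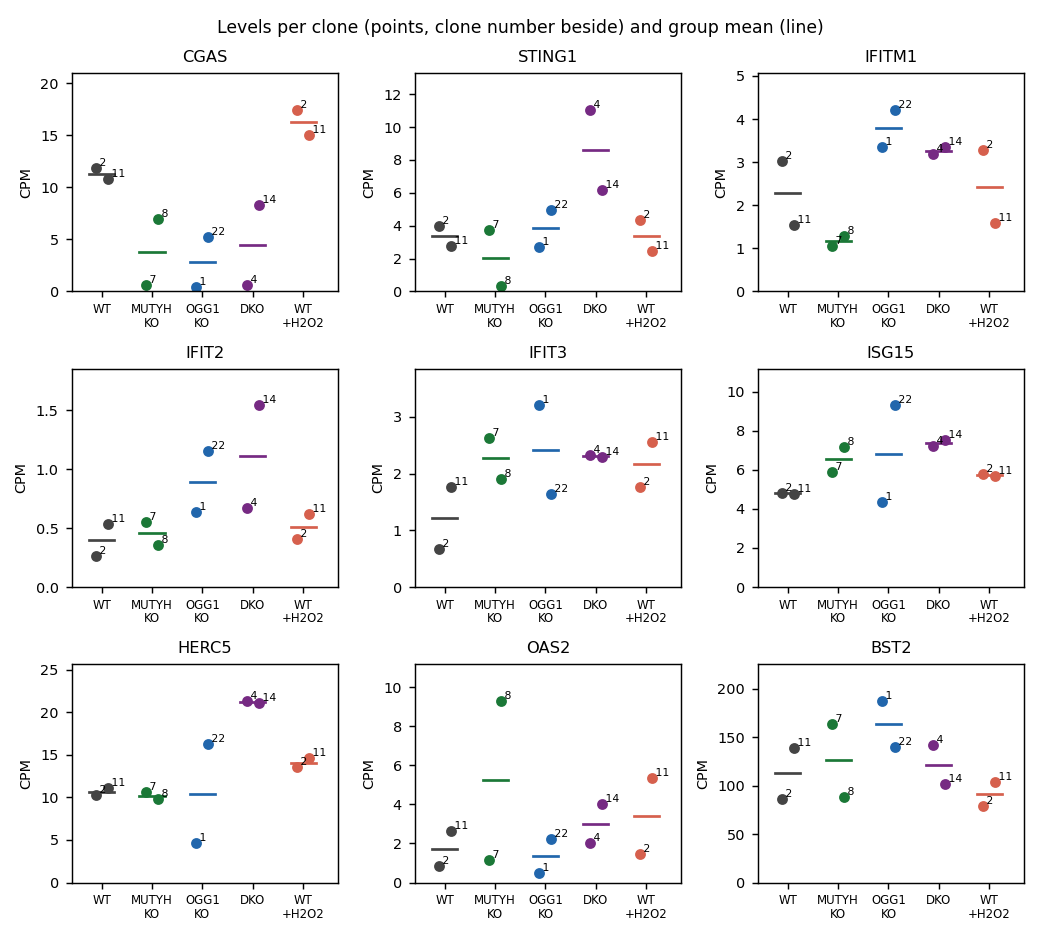
CPM of 9 members in every library, on linear axes from 0, with the clone number beside each point and the mean of the 2 clones of a group as a line. HERC5 is at 21.1 and 21.4 CPM in DKO against 10.2 and 11.1 CPM in WT, OAS2 is at 9.31 CPM in MUTYH knockout clone 8 alone, and the 2 clones of a knockout differ by more than 10-fold for CGAS.

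When the 4 clones without OGG1 were compared with the 4 clones that have it, 2 of 33 tested members met the criterion by edgeR, IFITM1 and IFIT2, both higher without OGG1, and 1.57% of all genes met it. IFITM1, a membrane protein that blocks virus entry, had 3.02 and 1.55 CPM for WT and 1.06 and 1.29 CPM for MUTYH knockout, against 3.34 and 4.22 CPM for OGG1 knockout and 3.18 and 3.35 CPM for DKO. The sides did not overlap, although DKO clone 4 lay just above WT clone 2. The log2 fold change was 1.10 ± 0.27 (SE, P of 0.00412, BH adjusted p = 1 by edgeR, 95% interval 0.47 to 1.73). Leaving out single libraries gave 0.90 to 1.38, and without WT clone 11 it was 0.90 with P of 0.0105, under the size threshold. After H2O2 WT clone 2 was at 3.27 CPM and WT clone 11 at 1.58 CPM, so treated WT clone 2 overlapped the clones without OGG1. Of its exon bases, 31.6% are shared with other annotated genes. The summed level of the 10 blood and immune markers moved with the same split, at 0.443 to 0.970 CPM in the untreated clones with OGG1 and 1.24 to 2.06 CPM in those without. Among them the progenitor marker CD34 had 3 to 5 counts in untreated clones with OGG1 and 9 to 23 in clones without. In H2O2-treated WT clones 2 and 11 CD34 had 4 and 9 counts, so treated clone 11 reached the lowest clone without OGG1. The part of these cells or transcripts in the result was not tested.

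IFIT2 was higher without OGG1 by 1.22 ± 0.43 on the log2 scale (SE, P of 0.0250, BH adjusted p = 1 by edgeR), with 0.633 to 1.54 CPM without OGG1 and 0.266 to 0.554 CPM with it. It no longer met the criterion when any 1 of DKO clone 14, OGG1 knockout clone 22, MUTYH knockout clone 8 and WT clone 2 was left out (P from 0.0786 to 0.109). DESeq2 called 3 members, with STING1 added. Non-overlapping levels were seen for IFITM1 and IFIT2 alone (6.06% of the members tested higher, 0 lower), against 1.7% of all genes higher and 1.55% lower. IFITM1, IFITM2 and IFITM3 are close paralogs that lie side by side on chromosome 11, and how reads with several alignments were counted is not given in the sources used here. IFITM2 was at 0.399 to 1.11 CPM with OGG1 and 0.678 to 1.69 CPM without, and IFITM3 at 0.185 to 0.798 and 0.224 to 1.41 CPM. The median log2 fold change of all tested members was -0.06, against 0.00 for all genes, and it was 0.04 and 0.09 without MUTYH knockout clones 7 and 8.

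For MUTYH loss over all 8 clones, 0 of 33 members met the criterion by edgeR and none had an unadjusted P of at most 0.05, while 0.721% of all genes met it. By DESeq2 it was met by 1 member, OAS2. No member had levels that did not overlap, whereas 0.861% of all genes lay wholly above and 0.615% wholly below. OAS2 had 0.843 and 2.61 CPM in WT, 1.15 and 9.31 CPM in MUTYH knockout, 0.497 and 2.22 CPM in OGG1 knockout and 2.02 and 4.01 CPM in DKO. The median log2 fold change of the members was 0.12, and 0.23 without WT clone 11. The test of whether MUTYH loss acted differently with and without OGG1 found 0 members by edgeR and by DESeq2, none with an unadjusted P of at most 0.05, while 2% of all genes met it. The smallest P there were those of SAMD9 (0.124), IRF7 (0.125) and IFI6 (0.144). SAMD9, an antiviral factor, had 3 to 21 counts per library, and IFI6, a mitochondrial protein, had 3.99 and 5.76 CPM in WT, 7.16 and 5.01 CPM in MUTYH knockout, 6.24 and 4.88 CPM in OGG1 knockout and 4.30 and 4.01 CPM in DKO.

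The intervals give the size of rise that these libraries could not separate from no change. In MUTYH knockout, OGG1 knockout and DKO, the upper 95% bound lay under a doubling for 11, 13 and 14 of the 33 tested members. TBK1, IRF3, STAT2, USP18, TRIM25, IFIT5, OAS3, PARP9 and PARP14, all with at least 125 counts in every library, were among them in each knockout. For the rest of the 33 a doubling lay within the interval in 1 or more of the knockouts, the widest intervals being among those of CGAS, MX1 and OAS2.

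**Figure D4:**
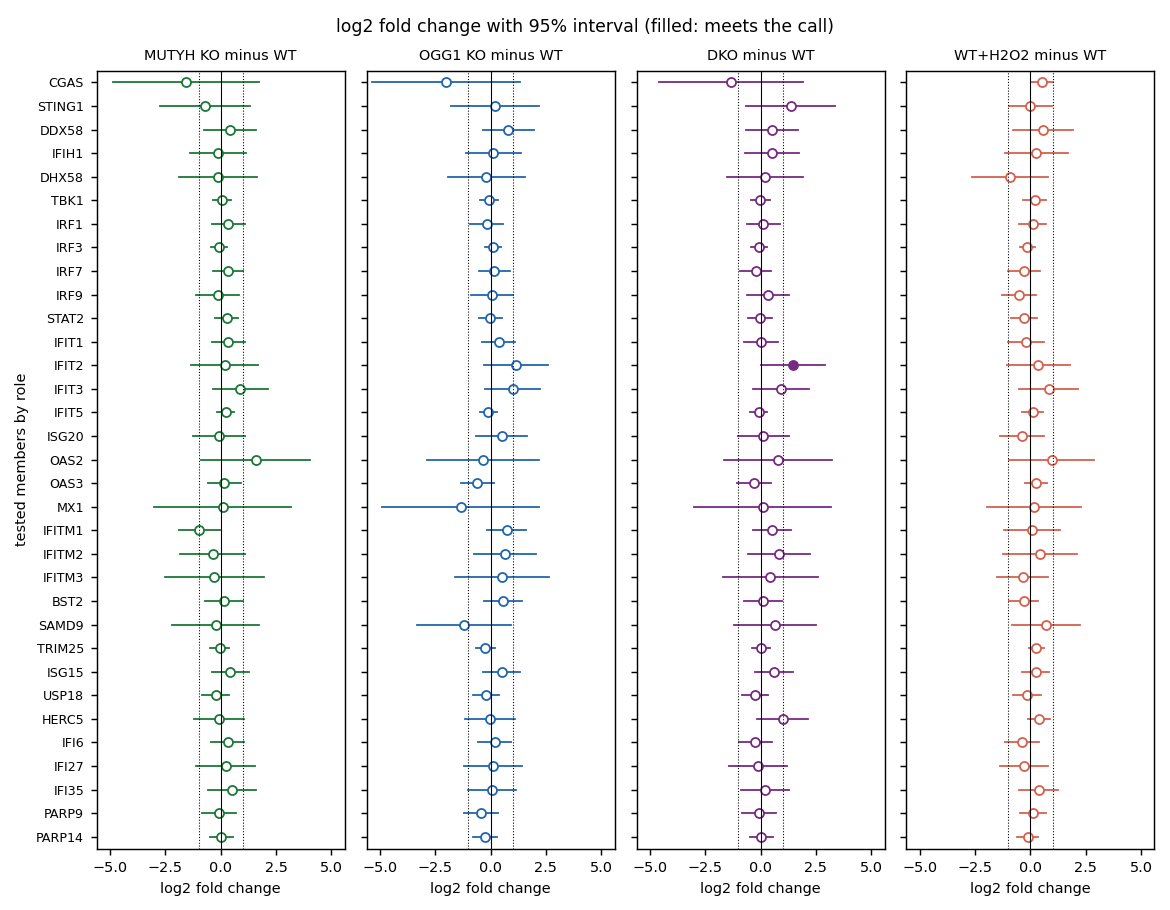
Log2 fold changes of the 33 tested members against WT with 95% intervals, in MUTYH knockout, OGG1 knockout, DKO and after H2O2, with dotted lines at 1 in either direction. The filled point, IFIT2 in DKO, is the only one that met the criterion, and the intervals of CGAS, OAS2 and MX1 are among the widest.

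Members divided between the 2 library sets about as other genes did. Of the 33 tested members, 9 (27.3%) were higher in set B in all 4 genotypes and 7 (21.2%) in set A, near the shares of all tested genes (22.6% and 24.4%). BST2 was among the 9, with 139, 164, 188 and 142 CPM in set B (in the order WT, MUTYH knockout, OGG1 knockout, DKO) and 86.6, 88.6, 139.995 and 102 CPM in set A. IRF7, IRF9, IFIT3, ISG20, DHX58, IFI6, IFI27 and TRIM25 were the others. The 7 members higher in set A were CGAS, TBK1, ISG15, IFIH1, IFI35, IFITM1 and USP18. BST2 kept its clone order after H2O2, with 79.5 CPM in clone 2 and 104 CPM in clone 11. DHX58 and IFI27 were higher in set B by 1.06 and 0.87 log2 units on average over the 4 genotypes, and IFIH1 was higher in set A by 0.68. In bulk libraries a shift in how many cells express a gene and a shift in RNA per cell cannot be told apart.

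After H2O2 0 of 33 tested members met the criterion by edgeR or DESeq2, with 1 at an unadjusted P of at most 0.05, while 1.75% of the 16997 tested genes did by edgeR. CGAS had the smallest P, with 11.8 CPM before and 17.5 CPM after treatment in clone 2 and 10.8 and 15.1 CPM in clone 11, a log2 fold change of 0.52 ± 0.20 (SE, P of 0.0458, BH adjusted p = 0.638 by edgeR, 95% interval 0.01 to 1.02). TRIM25, a ubiquitin ligase that activates RIG-I, stood at 109 and 114 CPM before and 126 and 145 CPM after treatment in clones 2 and 11, with P of 0.0920. HERC5 stood at 10.2 and 11.1 CPM before and 13.6 and 14.6 CPM after, with P of 0.0974. STING1, with 90 and 62 counts before and 95 and 56 after, IRF3, with 47.4 and 45.01 CPM before and 43.3 and 40.5 CPM after, and TBK1, with 40.8 and 32.7 CPM before and 48.7 and 36.0 CPM after, stayed within a doubling by their 95% intervals. ISG15 had 4.83 and 4.79 CPM before and 5.77 and 5.68 CPM after.

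The clone numbers pair treated with untreated libraries, and with clone as a replicate block still 0 members met the criterion and 0 had a BH adjusted p of at most 0.05, against 1.18% of all genes higher and 1.39% lower at that threshold. In the blocked fit the unadjusted P was at most 0.05 for 7 members. The share of all genes at that P in the blocked fit was not counted, so these 7 are a description. These were CGAS (P of 0.0105, BH adjusted p = 0.128), OAS2, IFIT3, HERC5 and TRIM25, with positive fold changes, and STAT2 and BST2, with negative ones, by edgeR. OAS2 was at 0.843 CPM before and 1.45 CPM after in clone 2 and at 2.61 and 5.33 CPM in clone 11 (blocked log2 fold change 0.93, P of 0.0090, BH adjusted p = 0.120 by edgeR). IFIT3 was at 0.665 and 1.77 CPM in clone 2 and at 1.77 and 2.55 CPM in clone 11. In a fit of all 10 libraries the P of CGAS was 0.685, since the spread between knockout clones enters that estimate.

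Both treated libraries lay above both untreated ones for 8 members (24.2%, CGAS, TRIM25, HERC5, IFIT3, OAS3, IFI35, ISG15 and IRF1) and below for IRF9, IRF3 and IFITM3 (9.09%), where 21.5% and 20.0% of all genes did so. Within each clone, 17 of 33 members (51.5%) were higher after treatment in both clones and 10 (30.3%) lower in both, against 34% and 31.4% of all tested genes. No member more than doubled in both clones, while 99 of all tested genes did. DHX58, which regulates RIG-I signalling, was lower in both clones, by 0.85 and 0.77 on the log2 scale, with 9 and 20 counts before and 4 and 11 after. SAMD9 differed between the clones, with 14 counts before and 12 after in clone 2 and 5 before and 19 after in clone 11. The median log2 fold change of the members was 0.10, against 0.00 for all genes. It was 0.10 with the block and -0.03 without treated clone 11.

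**Figure D5:**
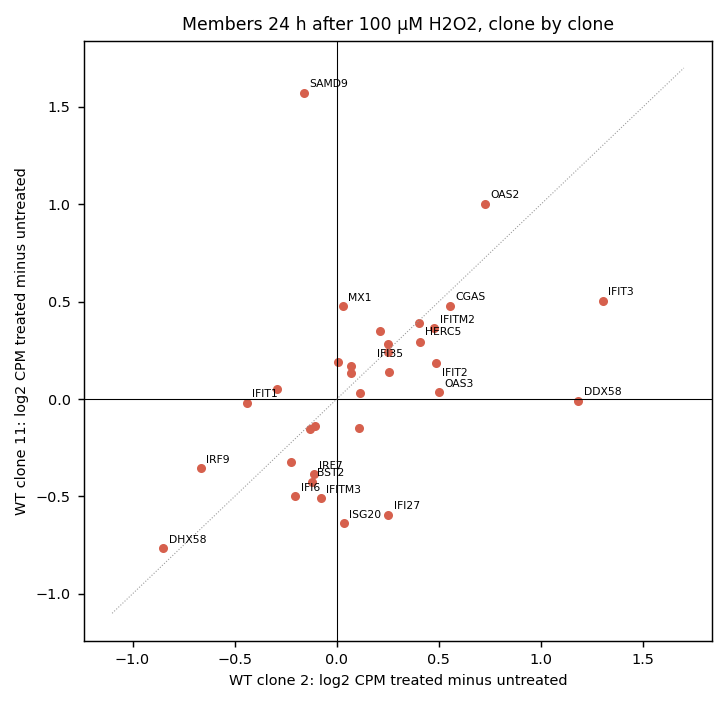
Change in log2 CPM after H2O2 of each tested member in WT clone 2 (horizontal) and WT clone 11 (vertical), with the dotted line marking equal change. OAS2, CGAS and IFIT3 lie in the upper right, DHX58 and IRF9 in the lower left, and SAMD9 and DDX58 are over 1 in a single clone.

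Genes of the same pathway outside the 39 were counted in 5 lists. Of 24 further sensors and adaptors, 19 were tested against WT, and 0 met the criterion by edgeR in MUTYH knockout, OGG1 knockout or DKO, with 0, 1 and 0 at an unadjusted P of at most 0.05. After H2O2 it was 0 of 18, with 0 at that P. Of 38 further interferon-stimulated genes, 26 were tested in the knockouts and 24 after H2O2, and 0 met the criterion in each, with 0, 0, 1 and 2 at an unadjusted P of at most 0.05. Among 24 genes for interferons, receptors and JAK-STAT signalling, 17 were tested and 1 met the criterion, IRF8 in MUTYH knockout, where 1.19% of all genes did. IRF8, a factor of myeloid cells, had 2 and 29 counts for MUTYH knockout and 87 and 111 for WT (log2 fold change -2.66 ± 0.98, SE, P of 0.0288, BH adjusted p = 0.9997 by edgeR). In the OGG1 knockout and DKO clones IRF8 had 37 to 121 counts. After H2O2 none of these 3 lists held a called gene without the clone block. With it 1 sensor, IFI16 (log2 fold change 1.005, P of 0.0250), and 1 further interferon-stimulated gene, DDX60L (1.07, P of 0.00386), met the criterion, with BH adjusted p of 0.182 and 0.0841 by edgeR. The share of all genes meeting the criterion with the block was not counted.

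Class I antigen presentation and NF-kB targets held the other genes called against WT. Of 16 class I genes, 15 were tested, and NLRC5, the activator of class I transcription, met the criterion in OGG1 knockout (log2 fold change -1.50 ± 0.42, SE, P of 0.0079) and in DKO (-1.08 ± 0.41, P of 0.0326), with BH adjusted p of 0.999 and 1 by edgeR. In OGG1 knockout and DKO, 1.67% and 1.77% of all genes met the criterion. The counts of NLRC5 were 457 and 205 for WT, 181 and 168 for MUTYH knockout, 133 and 97 for OGG1 knockout and 182 and 129 for DKO, so WT clone 2 stood apart from all other untreated libraries. Of 16 NF-kB targets, 10 were tested, and 1 met the criterion in MUTYH knockout, 0 in OGG1 knockout, 2 in DKO and 1 for MUTYH loss, where 1.19%, 1.67%, 1.77% and 0.721% of all genes did. BIRC3 met the criterion in MUTYH knockout with 6 and 8 counts against 18 and 16 in WT. RELB, a subunit of the noncanonical NF-kB dimer, met it in DKO with 124 and 74 counts in clones 4 and 14 against 25 and 53 in WT clones 2 and 11, and ICAM1 met it in DKO with 166 and 49 counts against 30 and 43.

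After H2O2 RELB was the called gene of these 5 lists without the clone block, where 1.75% of all genes were called, with 310 and 221 counts in clones 2 and 11 against 25 and 53 before. Its log2 fold change was 2.77 ± 0.44 (SE, P of 0.000907, BH adjusted p = 0.638 by edgeR), and with clone as a block the BH adjusted p was 0.00105. The block added 1 class I gene, the immunoproteasome subunit PSMB9, at 1.01 (P of 0.0290, BH adjusted p = 0.194 by edgeR), and IFI16, DDX60L and PSMB9 were named after their values were seen. ICAM1 was at 14 and 35 counts after treatment and 30 and 43 before, and BIRC3 at 24 and 21 counts after and 18 and 16 before.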

How the data were processed

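Total RNA from HAP1 clones was sequenced on the DNBseq platform. The authors aligned reads to GRCh38 with HISAT2 2.2.1 and counted them per gene with featureCounts against an Ensembl annotation, and deposited raw counts per gene and library. The strand setting and the treatment of reads with several alignments are not given in the sources used here. The 2 untreated WT columns of the treatment table were identical to those of the genotype table and were used once. The 39 members, the role groups and the pathway lists were chosen with earlier results of these data known. Members were named with all values if they met the criterion, were among the 3 smallest P of a comparison, or were CGAS, STING1, TBK1, IRF3, ISG15 or IFIT1.

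The deposited counts entered edgeR 4.0.16 under R 4.3.3 (TMM factors, filterByExpr by group, quasi-likelihood F test with legacy=TRUE, two-sided). Genotypes were fitted in the 8 untreated libraries (17881 genes, 4 residual degrees of freedom) and H2O2 in 4 libraries (16997 genes, 2 residual degrees of freedom, 1 with the clone block). BH adjustment was over all tested genes. SE and 95% intervals were derived from the F statistic, and log2 CPM used a prior count of 2. P values measure the spread between 2 clones per group. The clone numbers pair treated and untreated WT, since the libraries came from the same clones, and the clone difference correlated across 16997 genes (Pearson r = 0.681, a description). DESeq2 1.42.0 was an alternative. The scripts were tested on simulated data. Positions and exon lengths came from GENCODE v44. One gene of the pathway lists is not reported singly here.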

Additional observations from a re-analysis of the deposited data

Results flagged for a closer look

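No member met the criterion in the test of whether MUTYH loss acts differently with and without OGG1. In the list of 38 further interferon-stimulated genes, 3 did by edgeR, all with an interaction above 0, and they are named here after their values were seen. PARP12, an antiviral ADP-ribosyltransferase, had an interaction of 1.05 on the log2 scale (P of 0.0397, BH adjusted p = 1 by edgeR), with 276 and 247 counts in WT, 169 and 201 in MUTYH knockout, 193 and 142 in OGG1 knockout and 307 and 195 in DKO. DDX60, a helicase linked to RNA sensing, had 1.66 (P of 0.0486, BH adjusted p = 1 by edgeR), with 63 and 30, 19 and 40, 34 and 24, and 53 and 66 counts in the same order of groups. TNFSF10, which encodes the death ligand TRAIL, had 2.27 (P of 0.0401, BH adjusted p = 1 by edgeR), with 22 and 6, 11 and 8, 5 and 7, and 21 and 20 counts. Of all genes, 2% met the same criterion.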

How the results depend on the processing

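No member had a BH adjusted p of at most 0.05 in any comparison under any setting run. The share of all genes meeting the criterion was counted for the main fits only. The numbers of called members under other settings are therefore a description. In the 4 libraries of WT and DKO alone 1 member was called, STING1 and not IFIT2. DESeq2 called 0 members in DKO and 1 for MUTYH loss. Without a filter on low counts 1 member was called for MUTYH loss. With at least 10 counts in every library, 0 were called in DKO and 1 for OGG1 loss, since IFIT2 was not tested there. With the library set as a block, 1 was called in MUTYH knockout (CGAS), 2 in OGG1 knockout, 2 in DKO (each CGAS and IFIT3), 3 for OGG1 loss (IFIT2 and IFITM1 with CGAS added) and 1 in the interaction (CGAS). Leaving out single libraries gave 0 to 2 called members in MUTYH knockout, OGG1 knockout, MUTYH loss and the interaction, 0 to 3 in DKO, 1 to 4 for OGG1 loss and 0 to 1 after H2O2. Without WT clone 11 the calls were IFIT3 and IFITM1 in MUTYH knockout, DDX58 and IFIT3 in OGG1 knockout, IFIT2, IFIT3 and IFITM2 in DKO, and IFIT3 after H2O2. Without MUTYH knockout clone 7 they were OAS2 and STING1 in MUTYH knockout, without OGG1 knockout clone 22 HERC5 and IFIT3 in OGG1 knockout, and without WT clone 2 IFITM1 in OGG1 knockout. The direction turned for OAS2 in MUTYH knockout (-0.58 to 2.62), and for CGAS under OGG1 loss (-2.30 to 0.38), MUTYH loss (-1.86 to 0.85) and the interaction (-0.61 to 4.85). These turns came when MUTYH knockout clone 8 (OAS2, OGG1 loss), OGG1 knockout clone 22 (MUTYH loss) or DKO clone 14 (interaction) was left out, and where an arm keeps 1 library it is assumed to vary like the others. With the replicate block of clone, paired by clone number, 0 members were called after H2O2 and the median log2 fold change was 0.10. Scaling by total count in place of TMM factors moved the group means of CGAS, IFITM1, IFIT2 and BST2, the 4 members recomputed, by less than the SD between clones.

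With 2 clones per group the fits had few degrees of freedom, and genes under about 1 CPM, such as IFIT2 with 6 to 35 counts, rest on counts for which counting error alone is large. Because 3 of the 4 clones without OGG1 share a lineage, a clone effect and the loss of OGG1 cannot be told apart.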
